A study of Mus musculus with 3 samples.

Results

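The proteasome genes of mouse macrophages were examined: every gene with at least 1 protein_coding transcript whose symbol starts with Psma, Psmb, Psmc, Psmd, Psme, Psmf or Psmg followed by a number. This rule took 50 of the 21901 genes with a protein_coding transcript. Another 4 loci with symbols of this pattern had no coding transcript and were left out. Chromatin-associated RNA had been sequenced after removal of ribosomal RNA from bone marrow-derived macrophages of C57BL/6J mice, primary cells grown from marrow. All cells had received lipid A, the membrane anchor of bacterial lipopolysaccharide and a ligand of Toll-like receptor 4, at 100 ng/ml for 50 min. The 3 libraries formed 1 group, numbered as biological replicates 1, 2 and 3 and made from 1000, 250 and 500 ng of RNA, and they carried 1 donor code, so the spread between them may be partly technical. Untreated cells were not analysed here, so the values give levels at this time and not a response to lipid A.

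The proteasome degrades proteins, most of them tagged with ubiquitin. Its 20S core is a barrel of stacked rings: outer alpha rings that gate the entrance and inner beta rings that hold the active sites, which are supplied by Psmb6 (caspase-like), Psmb7 (trypsin-like) and Psmb5 (chymotrypsin-like). The 19S particle recognises ubiquitin chains, unfolds the substrate with a ring of ATPases and feeds it into the core. In cells of the immune system and under interferon gamma, Psmb9, Psmb10 and Psmb8 take the places of Psmb6, Psmb7 and Psmb5 in newly made cores, which are then called immunoproteasomes and make many of the peptides shown on MHC class I. PA28 alpha and beta (Psme1 and Psme2) form an alternative cap that interferon gamma also induces. Chromatin-associated RNA is rich in transcripts still being made or spliced, so a level here is not the level of mature mRNA in the cytoplasm.

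Expected counts assigned to genes summed to 10496703, 17687379 and 14806118 in replicates 1, 2 and 3. Levels are given in TPM, a transcript abundance corrected for length and scaled to the same sum in every library. A gene with 10 or more counts in every library was called detected. Each library had been quantified in 2 ways, and the gene table is called the first quantification here and the table per transcript with a target identifier the second. All 9 macrophage markers were detected, at 11.8 to 179 TPM. Of the other markers, none of 5 for B cells, neutrophils or fibroblasts and none of 3 for thymic cortical epithelium was detected, against 1 of 5 for T cells (Cd4, 1.52 ± 0.51 TPM, with Cd3d, Cd3e and Cd3g listed at 0 in the first quantification and Cd3d at 18.0 TPM in the second), 2 of 5 for dendritic cells and 1 of 3 for testis. Among the fibroblast markers, Col1a1 had 0, 28 and 21 counts in replicates 1, 2 and 3, Col3a1 0, 19 and 12, and Col1a2 1, 25 and 14. These collagen genes missed the minimum in replicate 1 alone, while Dcn had 0, 1 and 1 counts and Pdgfra 0 in each. In bulk RNA, fewer cells of a type and less RNA per cell cannot be told apart.

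Promoters of 4 catalytic genes are printed because their levels are compared further on and because interferon gamma is known to act on the immunoproteasome genes through their promoters. The windows below run from 250 bases before to 50 bases after the RefSeq start (GRCm38.p6), 5′ to 3′ on the strand of the gene, and capitals mark the 1 match that each held among the motifs searched. Psmb8 (chr17:34197945-34198244, plus strand) held the interferon gamma-activated sequence GAS, spelled TTCNNNGAA. The span of Psmb8 in the GENCODE M21 annotation, 34197721 to 34201454, starts further upstream and holds this whole window.
Psmb8: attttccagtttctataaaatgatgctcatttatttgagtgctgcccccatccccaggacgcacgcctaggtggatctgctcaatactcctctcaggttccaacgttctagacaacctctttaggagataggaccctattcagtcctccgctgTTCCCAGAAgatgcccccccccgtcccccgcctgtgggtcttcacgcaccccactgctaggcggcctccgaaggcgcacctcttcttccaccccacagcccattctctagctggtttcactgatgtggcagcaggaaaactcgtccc
Psmb9 (chr17:34187281-34187580, minus strand) held a CCAAT box, here on the opposite strand. The GENCODE M21 span of Psmb9, 34181987 to 34187764, also holds its whole window.
Psmb9: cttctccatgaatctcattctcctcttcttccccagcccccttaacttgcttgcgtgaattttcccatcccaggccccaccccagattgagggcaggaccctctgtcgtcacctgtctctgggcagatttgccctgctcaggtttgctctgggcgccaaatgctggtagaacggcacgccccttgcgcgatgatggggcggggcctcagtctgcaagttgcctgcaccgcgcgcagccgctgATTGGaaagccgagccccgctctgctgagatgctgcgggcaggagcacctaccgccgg
Psmb5 (chr14:54617946-54618245, minus strand) held an antioxidant response element (ARE, TGACNNNGC), the kind of site bound by NRF1 and NRF2.
Psmb5: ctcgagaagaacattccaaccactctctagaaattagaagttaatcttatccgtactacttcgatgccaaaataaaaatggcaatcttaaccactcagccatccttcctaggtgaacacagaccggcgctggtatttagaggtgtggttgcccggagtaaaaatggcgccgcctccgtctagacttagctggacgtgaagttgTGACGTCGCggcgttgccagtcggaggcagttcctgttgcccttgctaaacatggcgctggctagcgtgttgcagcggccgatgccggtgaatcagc
Psmb6 (chr11:70525107-70525406, plus strand) also held an ARE.
Psmb6: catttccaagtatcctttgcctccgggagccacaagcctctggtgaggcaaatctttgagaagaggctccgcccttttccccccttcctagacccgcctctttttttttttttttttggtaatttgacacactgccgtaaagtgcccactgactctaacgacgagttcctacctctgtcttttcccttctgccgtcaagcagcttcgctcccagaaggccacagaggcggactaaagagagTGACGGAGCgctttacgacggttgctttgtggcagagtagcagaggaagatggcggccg

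A RefSeq window was found for 42 of the 50 genes, and the letters were searched on both strands. GAS stood in 3 of the 42 (Psmb8, Psmd2 and Psmg1), against 8.30% of all 32851 windows. The ARE stood in 6 (Psmb5, Psmb6, Psmc6, Psmd9, Psmd12 and Psme4), against 12.4% of windows. The interferon-stimulated response element ISRE, 2 copies of GAAA with 2 bases of any kind between them, stood in 5 (Psmb3, Psmd4, Psmd9, Psme1 and Psmg4), against 3.44% of windows. The NF-kB motif stood in 6, none of them an immunoproteasome gene, against 8.46% of windows. CCAAT stood in 15, among them Psmb9, against 37.4% of windows. A match describes the letters and is not evidence of binding. The Psmb9 window shares 275 bases with that of Tap1, a subunit of the peptide transporter for MHC class I, which starts 226 bases away and is read in the other direction.

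Of the 50 proteasome genes, 43 were detected, against 44.1% of all genes with a protein_coding transcript. The 7 that fell short were Psma8, the alpha subunit of the testis; Psmb11, the beta subunit of the cortical epithelium of the thymus; the constitutive Psmb5; the assembly chaperones Psmg1, Psmg2 and Psmg4; and Psmc3ip, which the symbol rule takes in but which encodes a meiotic recombination factor and no proteasome subunit. The median over the 50 genes, taken in each library, averaged 6.69 ± 0.298 TPM (SD over 3 libraries). The means of single genes ran from 0 to 98.7 TPM, with a median of 7.44 TPM. The median of the detected genes with a coding transcript was 4.88 TPM. Genes of the 19S particle (17 genes) had a median of gene means of 12.9 TPM and those of the constitutive 20S core (14 genes, without Psma8) one of 6.71 TPM. The 4 genes for 20S assembly chaperones had one of 0.637 TPM.

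**Figure D1:**
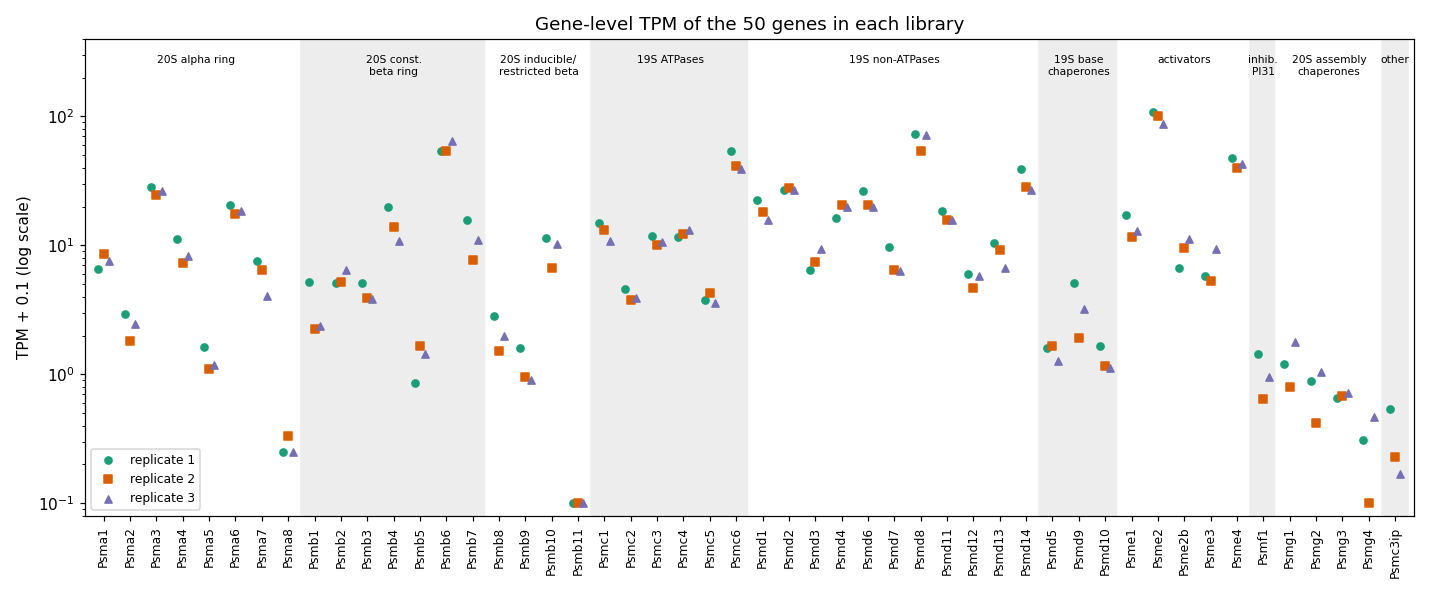
Gene-level TPM plus 0.1 (log axis) of the 50 genes, grouped by role along the horizontal axis, with 1 symbol for each of the 3 libraries. Psme2, at 87.3 to 109 TPM, is the highest gene, and Psmb11 lies at the bottom with 0 TPM in each library.

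Among the 8 alpha ring genes, 7 were detected, with means of 1.21 to 26.5 TPM. Psma3 was the highest with 28.4, 24.6 and 26.5 TPM in replicates 1, 2 and 3. Psma5 was the lowest detected with 1.54, 1.01 and 1.09 TPM, and no library of Psma5 came near one of Psma3. Psma8 stood at 0.15, 0.23 and 0.15 TPM.

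Of the 7 constitutive beta ring genes, 6 were detected, and their levels spanned a wide range. Psmb6, the caspase-like subunit, was by far the highest with 54.3, 54.2 and 64.8 TPM (57.8 ± 6.07, SD, n = 3), above 92.8% of the detected coding genes. Psmb7, the trypsin-like subunit, had 15.8, 7.55 and 10.9 TPM (11.4 ± 4.14). Psmb1, a structural subunit, was the lowest detected with 5.11, 2.14 and 2.29 TPM, replicate 1 standing above the other libraries. Psmb5, the chymotrypsin-like subunit, had 0.76, 1.57 and 1.35 TPM (1.23 ± 0.419) from 7, 23 and 11 counts. At that depth the exact Poisson 95% intervals were 0.231 to 1.18, 0.894 to 2.12 and 0.397 to 1.42 CPM (counts normalised to a common library size) in replicates 1, 2 and 3, which cover counting error only.

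The 3 immunoproteasome genes were all detected, at different levels. Psmb10 was the highest with 11.4, 6.61 and 10.2 TPM (9.41 ± 2.50), above 64.7% of the detected coding genes. Psmb8 had 2.75, 1.42 and 1.87 TPM (2.01 ± 0.676) and Psmb9 1.51, 0.85 and 0.80 TPM (1.05 ± 0.396). The counts behind them were 74, 90 and 80 for Psmb10, 45, 42 and 38 for Psmb8 and 28, 36.2 and 25.1 for Psmb9. Replicate 1 was the highest library for each of the 3 genes in TPM. The summed TPM of all 50 genes was highest there too, at 753, 633 and 658 in replicates 1, 2 and 3. So was the share of all TPM taken by genes with a coding transcript, at 22.3%, 16.4% and 20.4%. Each of the 3 immunoproteasome genes overlaps a gene on the opposite strand (Psmb8 with Gm20496, Psmb9 with Tap1, Psmb10 with Gm16156). The strand setting of the counting is not given in the sources used here, so reads of the overlapping gene cannot be told apart from their own. Of the subunits they replace, Psmb7 also overlaps Nek6 and Gm13586 on the opposite strand and Gm27634 on its own. Psmb5 overlaps Mir686 on its own strand, and Psmb6 overlaps no gene.

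Set against the subunit it replaces, each immunoproteasome gene gave another picture. Differences are in log2(TPM + 0.1), which understates those of low genes, and with 1 group of 3 libraries they are given with their spread and no test. Psmb9 was lower than Psmb6 by far, with log2 differences of -5.08, -5.84 and -6.17 in replicates 1, 2 and 3 (-5.70 ± 0.56, SD), that is 51.8-fold lower. The 2 genes did not overlap in any library. Psmb10 was close to Psmb7 on this basis, with differences of -0.46, -0.19 and -0.09 (-0.25 ± 0.19), below it in every library by little more than the spread. Psmb8 against Psmb5 gave 1.73, -0.14 and 0.44 (0.68 ± 0.95), so that the libraries differed in direction and the mean lay within their spread. Without replicate 1 that mean was 0.15.

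**Figure D2:**
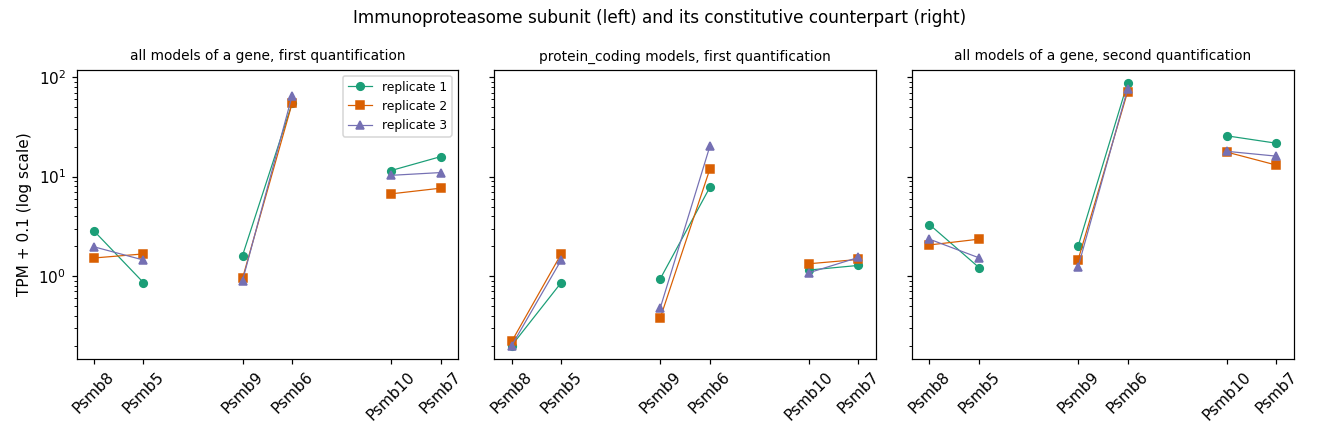
TPM plus 0.1 (log axis) of each immunoproteasome gene and its constitutive counterpart, lines joining values of 1 library, for all models of a gene in the first quantification (left), for protein_coding models alone (middle) and for all models in the second quantification (right). Psmb9 lies below Psmb6 in every panel, while Psmb8 lies below Psmb5 in every library only in the middle panel.

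Added up, the immunoproteasome genes held 15.7, 8.88 and 12.9 TPM in replicates 1, 2 and 3, and the constitutive catalytic genes 70.8, 63.4 and 77.0 TPM. The immunoproteasome genes thus made up 18.1%, 12.3% and 14.3% of the TPM of the 6 catalytic genes (14.9 ± 2.96%). Psmb6 supplied most of the constitutive sum and Psmb10 most of the immunoproteasome sum. The share was 19.9 ± 1.68% in the second quantification and 11.0 ± 5.63% from protein_coding models alone. From protein_coding models of the second quantification it was 6.23%, 6.99% and 5.32% (6.18 ± 0.834%).

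The direction of the Psmb8 comparison depended on which transcript models were counted. The annotation gives many genes models that are classed as keeping an intron (retained_intron), carry no open reading frame (processed_transcript) or are marked for nonsense-mediated decay. Reads from unspliced RNA can be assigned to the first of these. A retained_intron model need not span a whole intron of a coding model. Such models spanned 3 of 7 such introns for Psmb8, 3 of 11 for Psme2, 0 of 5 for Psmb3 and 0 of 7 for Psmb7. The only coding model of Psmb8 with reads, Psmb8-201, held 0.10, 0.12 and 0.10 TPM, and models that are not protein_coding held 94.2 ± 2.4% of the gene. From protein_coding models alone Psmb8 was lower than Psmb5 by 2.63 on the log2 scale (-2.63 ± 0.46). Psmb5 has no other kind of model. The difference of Psmb9 minus Psmb6 was -4.47 ± 1.25 on that basis and that of Psmb10 minus Psmb7 -0.27 ± 0.21. In the second quantification Psmb10 was higher than Psmb7 in each library when all models were counted, by 0.28 ± 0.14, and lower in each library from protein_coding models alone, with a difference of -2.31 ± 0.12. On that last basis Psmb8 minus Psmb5 was -2.93 ± 0.70 and Psmb9 minus Psmb6 was -5.32 ± 0.82, so Psmb9 alone kept its direction in all libraries on each of these bases.

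Psmb11 showed the largest gap between the quantifications. It was listed at 0 in all 3 libraries of the first and had 2.16, 2.06 and 1.79 TPM in the second, all of it in the model Psmb11-201. None of the 3 thymic epithelium markers was detected, and the second quantification gave them at most 0.281 TPM. No level of this gene is therefore stated.

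All 6 ATPases of the 19S base were detected, with means of 3.79 to 44.6 TPM (median 11.5). Psmc6 was the highest with 53.7, 41.1 and 39.1 TPM, and 86.6% of it lay in models that are not protein_coding. Psmc5 was the lowest with 3.69, 4.20 and 3.48 TPM, and 91.2% of that lay in Psmc5-202, a model marked for nonsense-mediated decay. Its coding model held 0, 0.78 and 0.27 TPM.

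All 11 non-ATPase genes of the 19S particle were detected, with means of 5.38 to 66.4 TPM (median 18.7). Psmd8, a lid subunit, was the highest with 73.1, 54.3 and 71.8 TPM. Psmd14, the deubiquitinase that removes ubiquitin chains from substrates, averaged 31.5 ± 6.80 TPM, and the ubiquitin receptor Psmd4 averaged 18.8 ± 2.28 TPM. Psmd12, another lid subunit, was the lowest with 5.87, 4.56 and 5.70 TPM.

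The assembly chaperones among the 50 genes had lower group medians, 1.41 TPM for those of the 19S base and 0.637 TPM for those of the 20S core. Among the chaperones of the 19S base, Psmd9 had 5.01, 1.83 and 3.11 TPM and Psmd10 1.55, 1.06 and 1.02 TPM, while Psmd5 averaged 1.41 ± 0.206 TPM. Of the 4 chaperones of the 20S core only Psmg3 was detected, with 0.56, 0.58 and 0.62 TPM. Psmg1 had 1.11, 0.70 and 1.69 TPM from 8, 9 and 20 counts, so it stood above Psmg3 in TPM while missing the count minimum. Psmg4 had 1, 0 and 2 counts in the first quantification and 7, 2 and 10 in the second, too few for a level. Psmf1, which encodes the inhibitor PI31, had 1.33, 0.54 and 0.85 TPM.

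All 5 genes for activators were detected. With all models counted, Psme2 (PA28 beta) was the highest proteasome gene of all with 109, 100.2 and 87.3 TPM (98.7 ± 10.7), above 96.1% of the detected coding genes. From protein_coding models alone it held 12.5 ± 3.64 TPM, below Psme4 (23.7), Psmd8 (22.5) and Psmb6 (13.2). Psme1 (PA28 alpha), the partner of Psme2 in the ring, had 17.2, 11.5 and 12.9 TPM (13.9 ± 2.98), below Psme2 in every library. Psme3 (PA28 gamma, a nuclear activator) had 5.73, 5.16 and 9.20 TPM (6.70 ± 2.19), and Psme4 (PA200, also nuclear) had 47.9, 39.9 and 42.6 TPM (43.5 ± 4.08). The mean log2 level of Psme1 and Psme2 exceeded that of Psme3 by 2.90, 2.70 and 1.86 (2.48 ± 0.55), 5.60-fold. The difference was 1.25 ± 0.21 in the second quantification and 0.13 ± 1.04 from protein_coding models of the first alone, where its sign differed between libraries. From protein_coding models of the second quantification Psme1 and Psme2 lay below Psme3 in each library, with differences of -2.90, -0.70 and -1.23 (-1.61 ± 1.15), so the direction depended on the models counted.

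Psme2 has a near-copy, Psme2b, with 6.63, 9.44 and 11.1 TPM. Their coding sequences of 693 and 717 bases were identical at 94.8% of 717 aligned positions, with 13 mismatches, 24 gap positions and 1 identical run of 264 bases. Among stretches of 90 bases without a gap, the one with the most differences is shown, from the GENCODE M21 annotation. Reads that lie within it can be told apart only at the 3 bases in capitals. It covers bases 430 to 519 of the coding sequence of Psme2 and 454 to 543 of that of Psme2b.
Psme2: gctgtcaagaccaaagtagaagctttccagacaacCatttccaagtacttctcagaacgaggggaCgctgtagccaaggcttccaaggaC
Psme2b: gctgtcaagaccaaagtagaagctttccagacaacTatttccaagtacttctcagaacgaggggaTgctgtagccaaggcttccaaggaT
The division of reads between them is therefore uncertain. Of the Psme2 level, 87.1% lay in 7 models of the retained_intron class, while Psme2b has protein_coding models alone.

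Models that are not protein_coding held 73.1%, 67.1% and 65.7% of the TPM of the 50 genes in replicates 1, 2 and 3 (68.6 ± 3.94%), against 50.1 ± 3.02% over all genes with a coding transcript and a mean of at least 10 counts. Retained-intron models, 99 in number, held 53.2 ± 2.84%, processed-transcript models 12.8 ± 1.60% and models for nonsense-mediated decay 2.54 ± 0.504%. The 111 protein_coding models held 31.4 ± 3.94%. In the second quantification models that are not protein_coding held 72.0 ± 2.74%.

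By gene, 31 of the 40 proteasome genes that have a model of another kind and a mean of at least 10 counts had more than 50% of their TPM outside protein_coding models, against 46.3% of 8523 such genes. Their median share was 67.6%, against 47.2% over those genes. The highest shares were those of Psmb8 (94.2%), Psmb3 (92.1%) and Psmc5 (91.2%). Psma5 has 1 model for nonsense-mediated decay and gave it no reads in the first quantification. These proteasome genes have more such models annotated, with a median of 3 for the 45 with a mean of at least 10 counts, against 2 over all 10298 genes, and the part of this in their share was not tested.

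**Figure D3:**
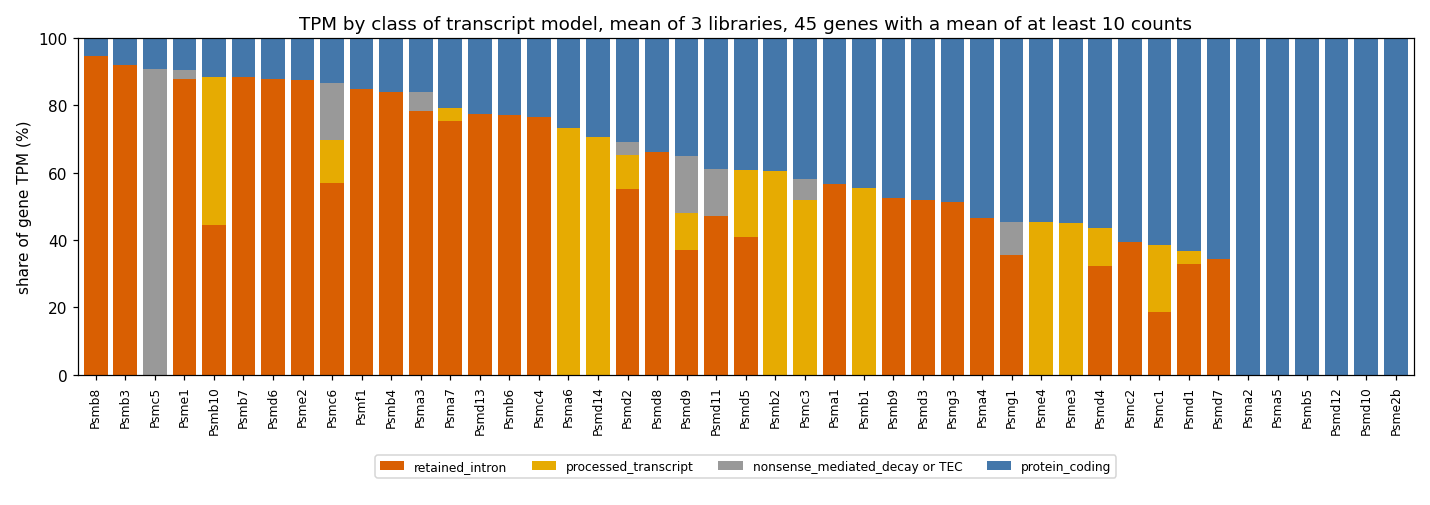
Share of the mean TPM of each gene (vertical axis, percent) by class of transcript model in the first quantification, for the 45 genes with a mean of at least 10 counts, ordered by the share that is not protein_coding. Retained-intron models hold most of the level of Psmb8, Psmb3, Psme1, Psmb7, Psmd6 and Psme2, and 6 genes at the right have protein_coding levels alone.

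Psmb6 shows how such models divide a gene (chr11:70525367-70527858, plus strand, GRCm38). Its coding model Psmb6-201 held 7.70, 11.8 and 20.1 TPM (13.2 ± 6.29). The retained-intron models Psmb6-202, Psmb6-203 and Psmb6-204 held 21.1 ± 1.62, 13.2 ± 1.67 and 10.3 ± 0.79 TPM. In this quantification the coding model had the largest SD, with replicate 3 the highest. In the second quantification the SD was 3.63 TPM for Psmb6-201, 4.32 TPM for Psmb6-202 and 4.94 TPM for Psmb6-203, so the coding model did not vary most there. Psmb6-203 keeps intron 2 of the coding model (341 bases) and Psmb6-204 keeps intron 4 (505 bases). The 30 bases around each end of these introns are printed, with the GT and AG at the intron ends in capitals, because RNA that keeps the intron reads straight through them.
Intron 2 start, chr11:70525943-70525972: caaccactggGTgagctcaaaacagaaagt
Intron 2 end, chr11:70526274-70526303: ctgtttccgccatcctgcAGgtcctacatc
Intron 4 start, chr11:70526664-70526693: aggagggcagGTcaggccctcctcaccaga
Intron 4 end, chr11:70527159-70527188: tcccccctcccatctggcAGgtgtactctg

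Genes with more models of this kind had higher gene-level TPM. Across the 45 genes with a mean of at least 10 counts, Spearman's rho between mean TPM and the number of models that are not protein_coding was 0.565, as a description across genes that share the libraries and the annotation. It was 0.324 over all 10298 genes, 0.261 when the TPM of the protein_coding models alone was used and 0.0242 against the length of the gene on the genome. The 5 genes with no such model (Psma2, Psmb5, Psmd10, Psmd12 and Psme2b) had a median of 2.32 TPM, the 18 with 1 to 3 models one of 6.09 TPM, and the 22 with 4 or more one of 14.4 TPM. From protein_coding models alone these medians were 2.32, 2.29 and 3.58 TPM. Whether abundant genes are annotated more fully was not tested.

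The second quantification gave higher levels for most proteasome genes, as it did for genes in general. Of the 45 genes with a mean of at least 10 counts, 29 were more than 1.5-fold higher in it than in the first (0.1 TPM added), against 57.3% of all such genes, and none was more than 1.5-fold lower, against 0.243%. The median ratio was 1.77 for the proteasome genes and 1.61 for all. Genes with a coding transcript took 41.6%, 28.8% and 31.9% of all TPM in the second and 22.3%, 16.4% and 20.4% in the first, so TPM of the 2 are not on the same footing. Psma2 had the largest ratio among these 45 genes, 10.1-fold, with 25.8, 23.9 and 23.6 TPM in the second and 2.86, 1.73 and 2.37 TPM in the first. Most of that gap lay in Psma2-202, with 21.5 ± 0.625 TPM in the second and 0 in the first, and the gene overlaps AW209491 on the same strand. Psma5 differed 4.06-fold, with 9.33, 4.04 and 2.32 TPM in the second.

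**Figure D4:**
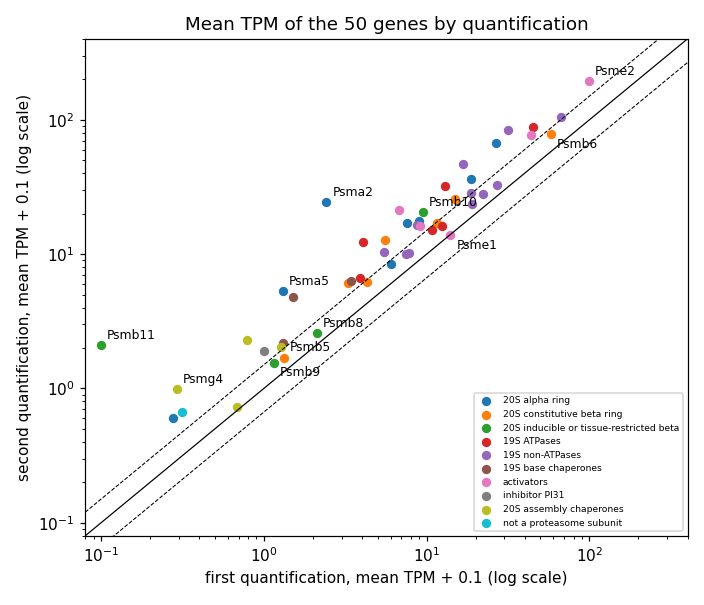
Mean TPM plus 0.1 of the 50 genes in the second quantification (vertical, log axis) against the first (horizontal, log axis), coloured by role, with the line of equality and dashed lines at 1.5-fold. Most points lie above the line, and Psmb11 and Psma2 lie farthest from it.

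Few proteasome genes varied widely between libraries. TMM-normalised CPM, which corrects for library size and composition, ranged more than 2-fold between the lowest and the highest library for 2 of the 45 genes, against 18.4% of all 10298. The median range was 0.44 on the log2 scale for the proteasome genes and 0.57 over all genes, and the part of their higher levels in this was not tested. The 2 were Psmg1 (0.656, 0.552 and 1.45 CPM in replicates 1, 2 and 3) and Psmb5 (0.574, 1.41 and 0.796 CPM), both with few counts. They were followed by Psmb1 (8.85, 5.27 and 4.49 CPM), highest in replicate 1, and Psmc4, an ATPase (9.18, 18.0 and 12.2 CPM), highest in replicate 2. The 95% counting intervals of Psmc4 were 7.56 to 11.0 CPM in replicate 1 and 16.0 to 20.2 CPM in replicate 2. They cover counting error only, and Psmc4 was named for its wide range. They are therefore no test of a difference between libraries.

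Replicate 2 was the highest library in TMM-normalised CPM for 27 of the 45 genes, against 38.5% of all genes. It was replicate 1 for 15, against 32.9%, and replicate 3 for 3, against 28.6%. The lowest library was replicate 3 for 22, against 22.7%, replicate 1 for 15, against 48.6%, and replicate 2 for 8, against 28.7%. Above their own mean over the 3 libraries lay 20 genes in replicate 1, against 42.2% of all genes, 34 in replicate 2, against 57.3%, and 11 in replicate 3, against 57.7%. Of the 17 genes of the 19S particle, 16 lay above their own mean in replicate 2, among them all 6 ATPases, against 57.3% of all genes. Their median shift from that mean was 0.22 on the log2 scale in replicate 2, against 0.05 for all genes, and -0.10 in replicates 1 and 3. Scaled by library totals, 13 of the 17 lay above their mean in replicate 2, and the median of all genes itself moved to 0.14 in replicate 1 and -0.06 in replicate 2. TPM gave another order. Summed over the 50 genes it was 753, 633 and 658 in replicates 1, 2 and 3. Over the 19S particle it was 354, 296 and 304, also lowest in replicate 2.

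The 3 immunoproteasome genes had small median shifts between libraries. The median was 0.13, -0.07 and -0.11 in replicates 1, 2 and 3, and all 3 genes lay above their mean in replicate 1. Their ranges on the log2 scale were 0.52 for Psmb8, 0.33 for Psmb9 and 0.14 for Psmb10, against a median of 0.44 over the proteasome genes. The other 42 proteasome genes with a mean of at least 10 counts, activators and assembly chaperones among them, had median shifts of -0.02, 0.17 and -0.12. A list of 15 interferon genes had median shifts of 0.28, -0.53 and 0.24, lowest in replicate 2, where Psmb8 and Psmb10 were also at their lowest and Psmb9 was not. The macrophage markers had -0.20, 0.22 and -0.04. Without replicate 1 the immunoproteasome shift in replicate 3 was 0.03. The amount of starting RNA differed for each library, and its part in these shifts cannot be told apart from that of the library.

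**Figure D5:**
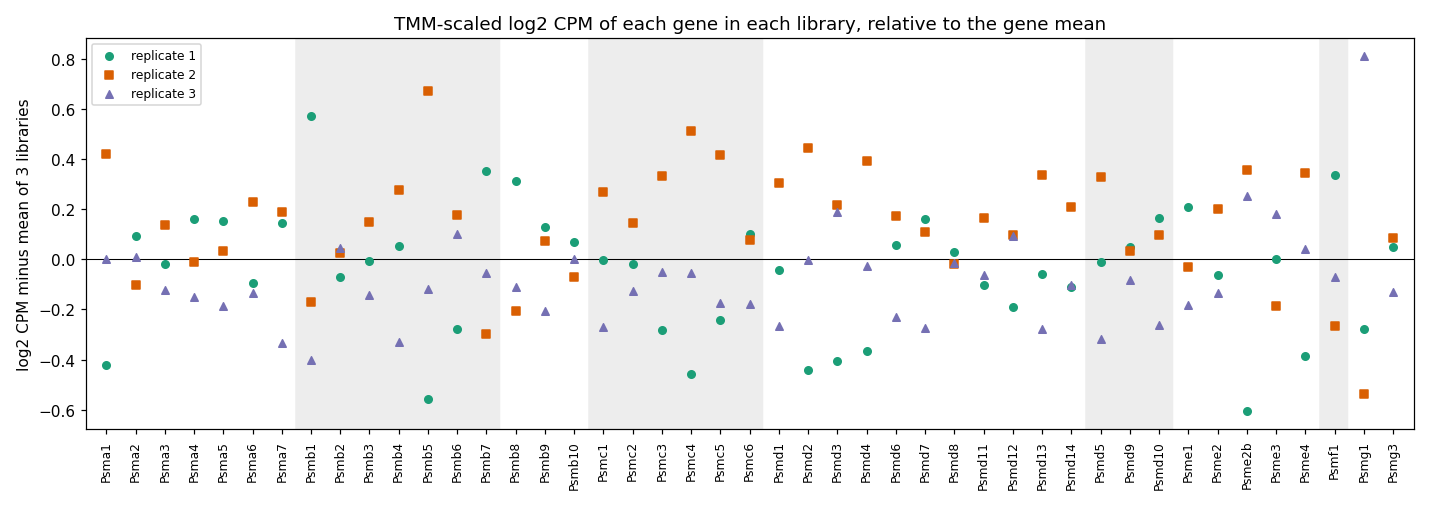
Log2 TMM-normalised CPM of each of the 45 genes in each library minus its mean over the 3 libraries (vertical axis, log2), grouped by role along the horizontal axis with shading. Replicate 2 lies above 0 for 16 of the 17 genes from Psmc1 to Psmd14, and Psmg1 has the widest range.

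Partners of the proteasome were read from a separate list, of which 19 genes were found and all 19 detected, with a median of 10.7 TPM. Nfe2l1, which encodes the factor NRF1 that drives proteasome genes when activity falls short, was the highest with 60.9, 36.4 and 43.5 TPM (47.0 ± 12.6). Zfand5, a ubiquitin-binding proteasome activator, averaged 45.4 ± 8.79 TPM, and Ecpas, a scaffold of the 26S complex, 39.8 ± 2.76 TPM. Pomp, the chaperone that completes the 20S core, averaged 8.45 ± 1.30 TPM, above the detected Psmg3. Ubqln2, a shuttle factor that brings ubiquitinated proteins, was the lowest with 0.29 ± 0.10 TPM. The median shifts of the 19 were 0.07, -0.09 and -0.03 in replicates 1, 2 and 3.

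All 7 genes for the handling of MHC class I peptides were detected, with a median of 8.05 TPM. Tapbp, which encodes tapasin of the loading complex, was the highest with 67.8, 29.1 and 59.8 TPM (52.2 ± 20.4), lowest in replicate 2. B2m, the light chain of MHC class I, averaged 25.9 ± 8.67 TPM. Tap1, next to Psmb9, had 8.78, 7.96 and 7.42 TPM (8.05 ± 0.685), against which Psmb9 stood lower in every library. Erap1, the peptidase that trims peptides in the endoplasmic reticulum, was the lowest with 2.40 ± 0.41 TPM.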

How the data were processed

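Chromatin-fraction RNA of 3 libraries of 1 group was analysed. The deposited gene and transcript tables held expected counts (estimated counts that need not be whole), TPM and FPKM per the file headers, and the deposited table with target identifiers held estimated counts and TPM per transcript, summed per gene here. The build was mm10 with GENCODE M21 per the deposited notes, while the aligner, the counting tools and the strand setting are not given in the sources used here. Rows naming no mouse gene took 1.28%, 0.427% and 0.383% of counts in replicates 1, 2 and 3 and were left out.

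Of 55536 genes, 86 have no transcript in the second table. Expected counts were rounded and scaled by TMM in edgeR 4.0.16 (R 4.3.3), with DESeq2 1.42.0 size factors and library totals as alternatives. Shifts are log2 CPM, with 0.5 added to the counts, less the gene's own mean over libraries, for genes with a mean of at least 10 counts. Their calculation was checked on simulated counts that held larger changes than the median shifts given here and less variation than these data. That check is no test of the shifts reported. The common biological coefficient of variation was 0.267. With 1 group no test was made: the smallest p that an exact sign-flip test allows with 3 libraries is 0.25. Log2 differences of TPM had 0.1 TPM added.

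Members, roles and lists were chosen with earlier results of these data known. Values in every library are printed for the 6 catalytic genes, Psme1 to Psme4, the highest and lowest detected gene of each role, the 4 genes with the largest range and the 4 with the largest ratio between quantifications. Psma8, Psmd4, Psmd5, Psmd14, Psme2b, the genes named by a share or motif and the partner genes were named besides these, after their values were seen. Of the symbols listed as partners, 19 genes were found, 2 of the listed symbols being older names of genes already listed, and Paaf1 was not found under that symbol. Promoters are those of RefSeq.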

Additional observations from a re-analysis of the deposited data

How the results depend on the processing

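The 16 results were recomputed under 107 alternatives, of which 86 left the value within the spread between libraries (or a count within 1.5-fold), 14 moved it further and 7 turned its sign. In the second quantification the immunoproteasome share was 19.9%, Psmb10 minus Psmb7 turned to 0.28, PA28 alpha and beta minus gamma was 1.25 and the median level was 13.7 TPM. From protein_coding models alone the share was 11.0%, Psmb8 minus Psmb5 turned to -2.63, Psmb9 minus Psmb6 was -4.47, the PA28 difference was 0.13 and the median was 2.32 TPM. From protein_coding models of the second quantification, a setting chosen after seeing the data, the share was 6.18%, Psmb8 minus Psmb5 turned to -2.93, Psmb10 minus Psmb7 was -2.31 and the PA28 difference turned to -1.61. Adding 1 TPM in place of 0.1 gave -4.85 for Psmb9 minus Psmb6. The median was 8.55 in FPKM, 34.5 TPM when rescaled over genes with a coding transcript and 9.03 TPM over detected members. Scaling by library totals gave shifts in replicate 1 of 0.35 for the immunoproteasome genes and, turned, 0.20 for the other proteasome genes. The median of all genes was then 0.14. The cause of these changes was not tested.

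Leaving out 1 library at a time gave 43 to 44 detected genes, a share of 13.3% to 16.2%, and differences of 0.15 to 1.09 for Psmb8 minus Psmb5 (lowest without replicate 1), -6.005 to -5.46 for Psmb9 minus Psmb6, -0.33 to -0.14 for Psmb10 minus Psmb7 and 2.28 to 2.80 for PA28. The immunoproteasome shift ran from 0.07 to 0.17 in replicate 1, -0.07 to -0.03 in replicate 2 and -0.17 to 0.03 in replicate 3, the last turned (0.035) without replicate 1. The shift of the other proteasome genes ran from -0.11 to 0.05 in replicate 1, turned (0.047) without replicate 2. It ran from 0.11 to 0.14 in replicate 2 and from -0.14 to -0.05 in replicate 3, there nearest to 0 without replicate 2. The share in models that are not protein_coding was 66.4% to 70.1% and the median level 6.52 to 6.79 TPM. Alternatives for 2 counts were also chosen after seeing the data: members mostly outside protein_coding models numbered 33 in the second quantification and 29 to 31 with a library left out, and 19S particle genes above their mean in replicate 2 numbered 13 by library totals, 16 by DESeq2 size factors and in the second quantification, and 14 to 16 with a library left out. No paired analysis was possible because there is 1 group only. Depth limits the low genes: a gene with 0 counts could have had up to 3 counts in a library.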
